A study of Drosophila melanogaster with 8 samples.

Results

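Chitin is the polysaccharide that stiffens insect cuticle, and it is part of the corneal lens over each ommatidium of the fly eye. The 10 genes described are those that make chitin (kkv), deacetylate it (serp and verm), organise and protect it at the cell surface (knk and rtv), cut it (Cht2, Cht5 and Cht6) and bind it in the matrix (obst-A and Gasp). They were chosen by name for these roles, and all 10 were found among the 15127 genes of the table.

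Polyadenylated RNA from pooled retinas of female Drosophila melanogaster pupae, aged 40 h from the white prepupa, was sequenced. Animals of the genotype w[*] sev[14] gave 4 libraries (sev14: S1, S2, S4 and S5), with a mutant allele of the receptor tyrosine kinase gene sevenless and a w allele that the labels do not name, and the 4 control libraries (W1, W2, W5 and W6) came from w[1118] animals. Both groups carry a w allele, each comes from 1 stock, and the sev14 allele is in every cell of the animal. The sev14 allele and the rest of the stock background cannot be told apart here. Whether the libraries of a genotype are separate dissections is not stated, and p-values measure only the spread between them, which may be technical.

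Chitin is polymerised at the apical membrane by a synthase that takes its sugar from the cytoplasm and extrudes the chain outside the cell. Secreted deacetylases and matrix proteins then set the texture of the fibres, and chitinases with hexosaminidases cut chitin back to sugar when cuticle is remodelled or moulted. In the fly eye the lens is secreted by cone and primary pigment cells, while the same genes are also used in trachea, bristles and epidermis. In the absence of Sevenless signalling the R7 precursor develops as a cone cell.

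Libraries held 13755813 to 19317307 reads. The share of reads on the 9 genes with rRNA in their symbol was 0.528% to 3.67% except in S2 (12.5%) and S5 (10.1%). The targeted gene does not check the labels: sev had 202, 416, 119 and 358 normalized counts in S1, S2, S4 and S5, against 222, 338, 349.6 and 283 in W1, W2, W5 and W6. The genotypes overlapped (log2 difference -0.26, exact permutation p = 0.629, 2-sided, over 70 arrangements, whose smallest possible p is 0.0286). Retina markers were present in every library: the summed level of gl, chp, so, eya, elav and ey ranged from 30291 to 55444 in sev14 libraries and from 24069 to 38874 in control libraries. The sum was led by chp, whose log2 change was 0.79 (limma unadjusted p = 0.0277, adjusted p = 0.216). The changes of the other markers ran from -0.17 to 0.12. Bulk RNA cannot tell fewer cells of a type from less RNA per cell, and this holds for every value below.

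Of the 10 genes, 3 rose in sev14 retinas and 0 fell. They were Gasp, Cht6 and knk, at 3.60-fold, 2.27-fold and 1.58-fold of control. Among all 10192 genes tested, 2.38% rose and 1.82% fell by the same limma test at an adjusted p of 0.05. The median log2 change of the 10 genes was 0.82, against 0.00 over all tested genes. Before adjustment 7 of the 10 were higher and 1 lower at p under 0.05, against 9.12% and 7.54% of all genes. The 3 called genes were also the only members whose libraries did not overlap between genotypes. Among all tested genes 5.92% had every sev14 library above every control library and 5.18% every one below. By edgeR 4 members were called higher and 0 lower, against 2.24% and 1.53% of all genes. By DESeq2 6 were higher and 0 lower, against 4.94% and 3.38%. The authors' deposited table also had 6 members higher and 0 lower at an adjusted p under 0.05, against 4.03% and 2.75% of its genes. By limma the number of members called higher was 1 without S1 or without W2, and 5 without S5. Of all genes, limma called 137 of 10158 higher without S1, 170 of 10196 without W2 and 224 of 10165 without S5. These 10 genes were picked with earlier results of the same libraries known, so their share above the background is a description.

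**Figure D1:**
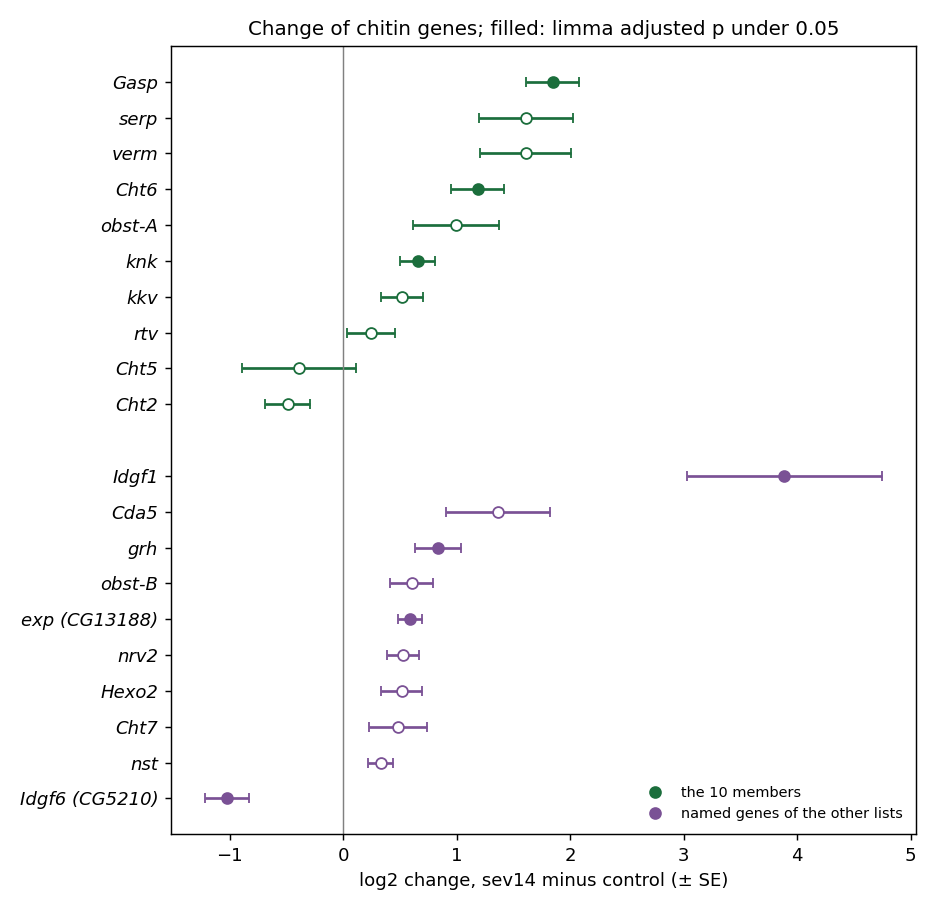
Log2 change, sev14 minus control, with its SE (4 libraries a genotype) for the 10 chitin genes (green, top) and for the named genes of the other lists (purple, bottom); filled points passed limma's test at an adjusted p of 0.05. Gasp, serp and verm lie furthest to the right among the 10, and Cht5 and Cht2 lie left of 0.

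Levels can be compared between genes only per length, here as normalized counts per kilobase of merged exons. The chitinase gene Cht5 was by far the most abundant, at 23007 ± 14694 per kb in sev14 and 27536 ± 12213 per kb in control retinas (SD, n = 4 each), which placed it above 99.5% of all tested genes. The synthase gene kkv came next, at 3533 ± 595 per kb in sev14 and 2458 ± 364 per kb in control retinas. In control retinas Cht2 followed kkv, and Cht5, kkv and Cht2 each stood apart from the next gene in every library. Below Cht2 in control retinas the order was Gasp, rtv, knk, verm, obst-A, serp and Cht6, and each of these overlapped with the next. In sev14 retinas Gasp was the third gene, at 3284 ± 920.4 per kb against 912 ± 227 per kb in control retinas, and it overlapped with kkv. The deacetylase gene verm ranked 4 of 10 in sev14 and 7 of 10 in control retinas. Cht6 had the lowest level per kb in both genotypes, with 462 ± 159.7 in sev14 and 197 ± 34.4 in control retinas, over exons that sum to 16.205 kb.

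**Figure D2:**
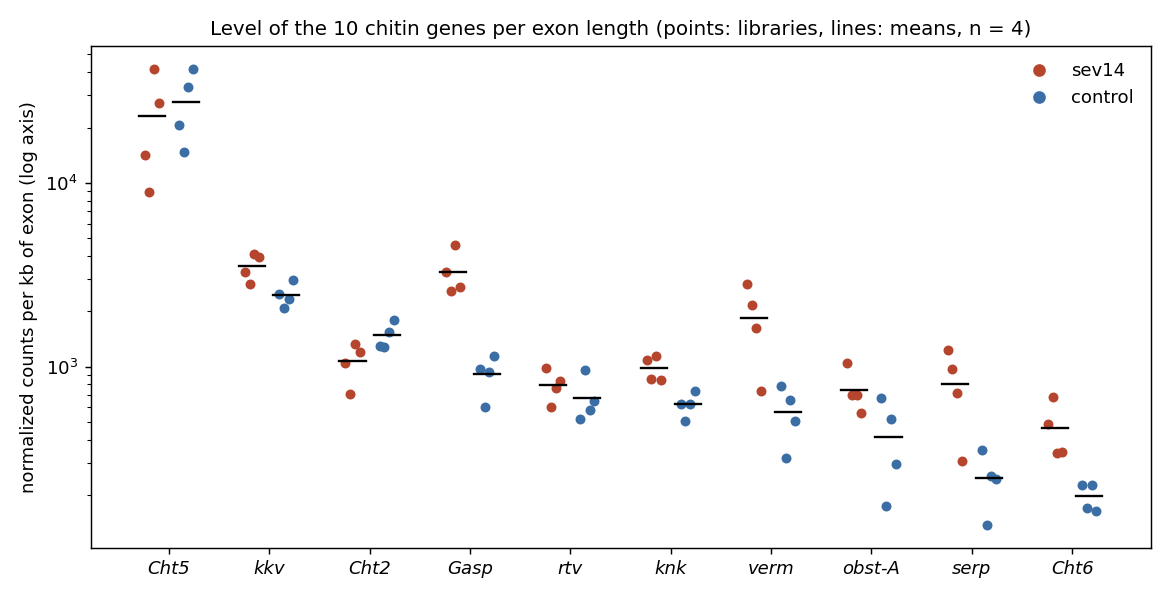
Normalized counts per kilobase of exon (log axis) for the 10 chitin genes, ordered by their control mean; points are libraries, black lines the means of 4 libraries, sev14 left of control for each gene. Cht5 lies above all others, and Gasp in sev14 retinas reaches the range of kkv.

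Synthesis is the work of kkv (krotzkopf verkehrt, FBgn0001311, 3R 5378093 to 5392866), the chitin synthase of epidermis and trachea. Coordinates are those of the deposited table, on BDGP6. It had 18706, 16053, 23394 and 22411 normalized counts in S1, S2, S4 and S5, against 14196, 11859, 13229.7 and 16772 in W1, W2, W5 and W6. Only S2 fell inside the control range, below W6. The log2 change was 0.52 ± 0.18 (SE) and did not pass limma's test (adjusted p = 0.166). It was called by DESeq2 (adjusted p = 0.0333), over a range of 0.0288 to 0.340 across all alternatives, and in the authors' deposited table (adjusted p = 0.0466). The small gene CG14668 lies inside kkv on the same strand, with at most 167 normalized counts in any library.

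The surface proteins Knk and Rtv act after synthesis. The gene knk (knickkopf, FBgn0001321, 3R 10122365 to 10125664) encodes a protein that organises new chitin and shields it from chitinases. It had 2914, 2297, 3056 and 2257 in S1, S2, S4 and S5, against 1666, 1352, 1679 and 1969.8 in W1, W2, W5 and W6. Every sev14 library was above every control library, and the change of 0.66 ± 0.15 passed the limma test (adjusted p = 0.0421). The call for knk ended without S1, S4, W1, W2 or W5 (adjusted p 0.0812 to 0.125), without both W6 and S4 (0.0737) and by edgeR (0.0586). It also ended under scaling by total reads (0.138) and with a block by the number in the column names. Over all alternatives the adjusted p ranged from 0.00392 to 0.138. An antisense RNA gene inside knk, CR46038, had at most 3.14 normalized counts.

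The gene rtv (retroactive, FBgn0261277, X 11152484 to 11153990) encodes a small membrane-anchored protein that Knk needs to reach the surface. It had 1249.8, 763, 975 and 1056 in S1, S2, S4 and S5, against 664, 1222, 739 and 830.1 in W1, W2, W5 and W6. The genotypes overlapped, with the highest control library near the highest sev14 library (0.24 ± 0.21, limma adjusted p = 0.647). Among the 3 members on X, rtv is the closest to sev, 66184 bases away. Its end overlaps the neighbouring gene Lint-1 by 109 bases on the other strand.

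Deacetylation is the work of serp (serpentine, FBgn0260653, 3L 19700977 to 19708015) and verm (vermiform, FBgn0261341, 3L 19690033 to 19695260), secreted enzymes best known for limiting the length of tracheal tubes. They are neighbours on the same strand, 5716 bases apart, with no other gene of the table between them. The level of serp was 3119, 2464, 1819.8 and 779.6 in S1, S2, S4 and S5, against 895, 349.6, 646 and 621 in W1, W2, W5 and W6. The level of verm was 6667, 5114, 3828 and 1736 in S1, S2, S4 and S5, against 1868, 751, 1561 and 1197 in W1, W2, W5 and W6. For both genes 3 sev14 libraries were above every control library, and S5 fell just below W1. The change of serp was 1.61 ± 0.41 (limma adjusted p = 0.0608) and that of verm 1.61 ± 0.40 (limma adjusted p = 0.0557), so neither passed.

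Both deacetylase genes were at the edge of the test, and their calls changed with the libraries kept, the method and the terms of the fit. Without S5 the adjusted p was 0.00776 for serp and 0.00880 for verm, with changes of 2.01 and 1.99. With all 8 libraries it was 0.0487 for serp and 0.0480 for verm by edgeR, and 0.000417 and 0.000299 by DESeq2. With a limma term for the number in the column names (1 or 2 against 4 to 6) it was 0.0355 for serp and 0.0332 for verm. Over all alternatives it ranged from 0.000417 to 0.168 for serp and from 0.000299 to 0.169 for verm. The 2 genes kept nearly the same ratio whatever their level: verm stood at 2.23 to 2.39 times serp per kb in sev14 libraries and at 2.07 to 2.59 times in control libraries. Their profiles over the 8 libraries, each centred on its own mean, had the smallest root mean square difference of any 2 members, 0.0867 on the log2 scale, with kkv and knk next at 0.185. Of the genes on either side, Gbeta76C, 40 bases beyond verm, had a log2 change of -0.51 (limma adjusted p = 0.169) and Trpml, beyond serp, one of -0.34 (limma adjusted p = 0.302).

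In sev14 libraries the tracheal markers btl, trh and dysf ran much as serp and verm did, while uif and pio did not. The tracheal receptor gene btl had 144, 156, 67.9 and 20.0 in S1, S2, S4 and S5, against 8.85, 20.1, 31.4 and 27.7 in W1, W2, W5 and W6, and the tracheal selector trh had 229, 175, 85.0 and 68.7 against 40.7, 25.1, 96.4 and 38.8. For btl, trh and dysf (dys in the deposited symbols), a tracheal factor gene that was at 0 in S5 and W6, S1 and S2 were the highest and S5 the lowest sev14 library, as for the deacetylase genes. For uif and pio S5 was the highest sev14 library. Among control libraries btl, at only 8.85 to 31.4 normalized counts, was lowest in W1, where serp and verm were highest. In the same libraries trh was lowest in W2, as were serp and verm, and highest in W5. Of all tested genes limma had 9.12% higher and 7.54% lower at an unadjusted p under 0.05, and DESeq2 called 4.94% and 3.38%. Of the 5 tracheal markers 0 passed limma's test, 3 had an unadjusted p under 0.05, edgeR called 0, and DESeq2 called btl higher and pio lower. Their changes were positive for 4 and negative for pio, a matrix protein gene also used outside trachea, whose sev14 libraries were all below the control libraries. The summed level of the 5 markers was 9994, 12574, 7001 and 15752 in S1, S2, S4 and S5, against 8118, 4263, 12378 and 5857 in W1, W2, W5 and W6. It was mostly uif in every library (3564 in W2 to 15098 in S5), so it says little of btl, trh and dysf. The sum was highest in S5, where uif alone had 15098. In S5 serp, verm, btl, trh and dysf were each lowest among sev14 libraries. The part of tracheal RNA in the serp and verm values was not tested.

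**Figure D3:**
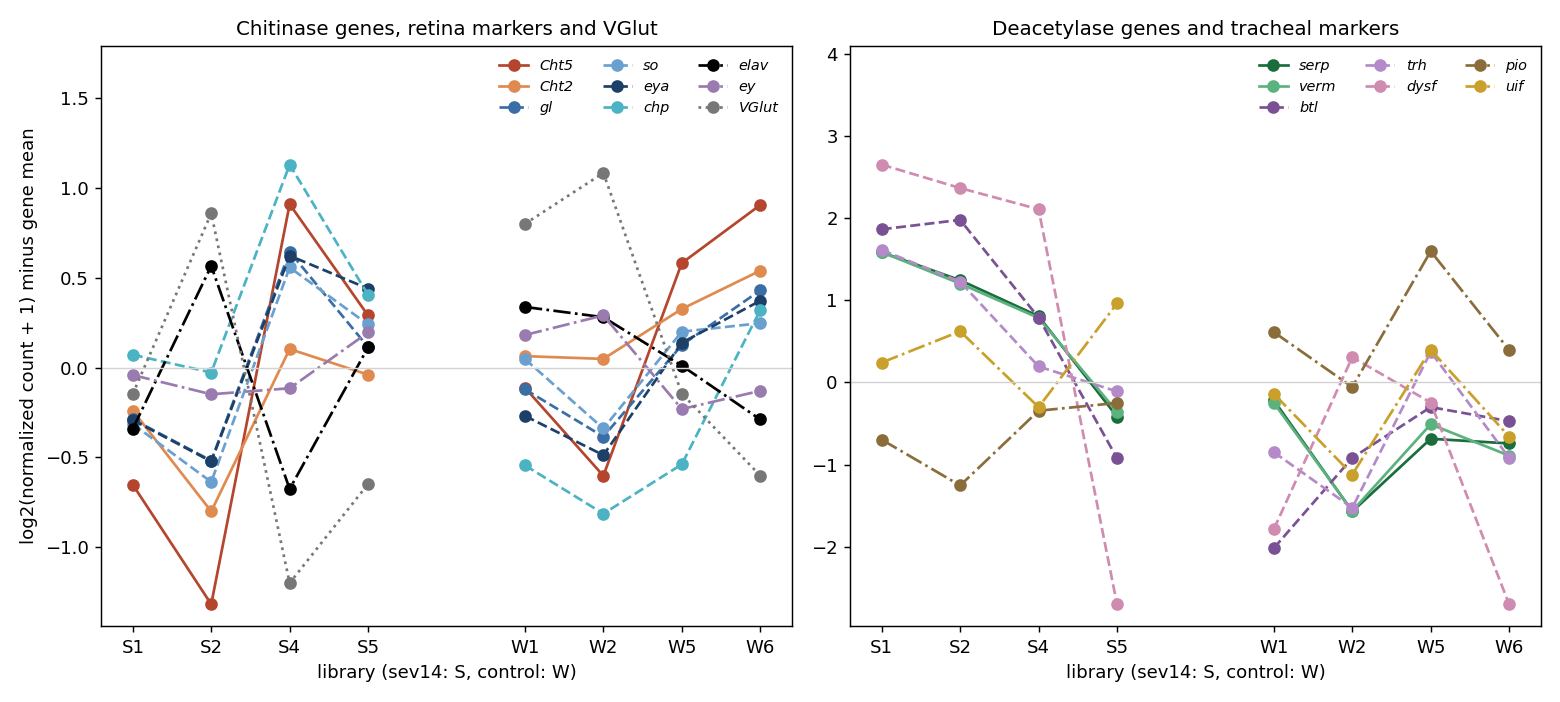
Log2(normalized count + 1) minus the gene's mean over 8 libraries, by library (sev14 left, control right of the gap), for Cht5, Cht2, the 6 retina markers and the neuronal gene VGlut (left panel), and for serp, verm and the 5 tracheal markers (right panel). Lines only join libraries of a genotype. Cht5 runs with gl, so, eya and chp but not with elav or ey and against VGlut. The lines of serp and verm overlie each other. In S5 serp, verm, btl, trh and dysf are at their lowest sev14 level, and uif and pio at their highest.

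The chitinase genes did not move as a group. Cht6 (FBgn0263132, X 10016845 to 10050803) encodes a chitinase needed for an ordered apical matrix. It had 7858, 11005, 5521 and 5557 in S1, S2, S4 and S5, against 3664, 2763, 3685 and 2658 in W1, W2, W5 and W6. The genotypes did not overlap, with S2 the highest, and the change was 1.19 ± 0.23 (limma adjusted p = 0.0183). Its adjusted p was 0.0619 without S1, 0.0579 without W2 and 0.0554 without W6, over a range of 3.42e-05 to 0.0619. The antisense RNA gene CR45185 lies within Cht6 and averaged 131 normalized counts over the 8 libraries. No source used here says whether reads were counted by strand, and reads of Cht6 and CR45185 cannot be told apart.

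Cht2 (FBgn0022702, 3L 1752328 to 1755934), a chitinase that acts on the outer cuticle, had 3177, 2151, 4029 and 3649 in S1, S2, S4 and S5, against 3919.5, 3878, 4703 and 5453 in W1, W2, W5 and W6. Only S4 entered the control range. The change was -0.49 ± 0.20 and did not pass (limma adjusted p = 0.248, and 0.0234 to 0.485 over the alternatives). Its end overlaps CG13921 on the other strand by 63 bases. Cht5 (FBgn0038180, 3R 13767549 to 13770732), a major moulting chitinase in insects, had 30003, 18907, 88684 and 57689 in S1, S2, S4 and S5, against 43639.8, 31058, 70633 and 88396 in W1, W2, W5 and W6. The sev14 range spanned the whole control range, with S1 and S2 below every control library and S4 just above every one (-0.39 ± 0.50, limma adjusted p = 0.788). The highest library was 4.69 times the lowest among sev14 and 2.85 times among control libraries, against 1.46 and 1.41 times for kkv.

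Within each genotype Cht5 had the library order of 4 of the 6 retina markers. How many of all tested genes share or reverse this order was not counted, so the match is a description. Over all 10192 genes the deviations of S4 and W6 from their genotype means correlated at 0.387, and those of S2 and W6 at -0.326. From low to high, Cht5 and Cht2 ordered the libraries S2, S1, S5, S4 and W2, W1, W5, W6, and gl, so, eya and chp gave the same order in both genotypes. The other 2 did not: elav, which all neurons express, ran S4, S1, S5, S2 and W6, W5, W2, W1, and ey ran S2, S4, S1, S5 and W5, W6, W1, W2. The eye selector gl had 2332, 1988, 4457 and 3082 in S1, S2, S4 and S5, against 2619, 2181, 3107 and 3839 in W1, W2, W5 and W6. VGlut, the vesicular glutamate transporter gene on the optic lobe list, gave exactly the reverse order, with 1389.5, 2792, 669 and 981 in S1, S2, S4 and S5 against 2681, 3264, 1392 and 1013 in W1, W2, W5 and W6. Of the other 5 optic lobe markers ap gave this reverse order too, and Gad1, bsh, hbn and vvl did not. The summed level of 6 optic lobe markers ranged from 1649 to 5944 in sev14 and from 2353 to 6220.2 in control libraries, and 0 of the 6 were called by limma, edgeR or DESeq2, with 0 at an unadjusted p under 0.05. The part of retina and neuron content in the Cht5 spread was not tested.

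The mean log2 level of gl, so and eya was also added to the fit as a term. Their own changes were small and of mixed sign (-0.02, -0.08 and 0.12). The term could thus hardly move the genotype changes of the 10 genes, only their errors. That the changes stayed close to those above was fixed in advance. The change was -0.49 for Cht2 (limma adjusted p = 0.0234), 0.52 for kkv (0.0288), 1.61 for verm (0.0306) and 1.61 for serp (0.0338), all under the threshold, so that 6 members were higher and 1 lower. Cht5 was still not called (-0.40, limma adjusted p = 0.165). These 3 genes were chosen from the 6 markers after the order of the libraries had been seen. Over all genes that fit called 4.4% higher and 3.77% lower.

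Gasp and obst-A encode chitin-binding proteins of the obstructor family, secreted into cuticle and tracheal lumen. Gasp (FBgn0026077, 3R 6088799 to 6100887) had 7677, 6064, 10812 and 6381 in S1, S2, S4 and S5, against 2271, 1421, 2194 and 2706 in W1, W2, W5 and W6. The lowest sev14 library was above the highest control library by more than the whole control range. The change was 1.85 ± 0.23 (limma adjusted p = 0.00141), and it was called in all 23 alternatives (adjusted p 1.05e-11 to 0.00767). Unlike serp and verm, Gasp was highest in S4 and did not follow btl within the sev14 libraries. The nearest genes on either side of Gasp had 0 reads in every library.

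**Figure D4:**
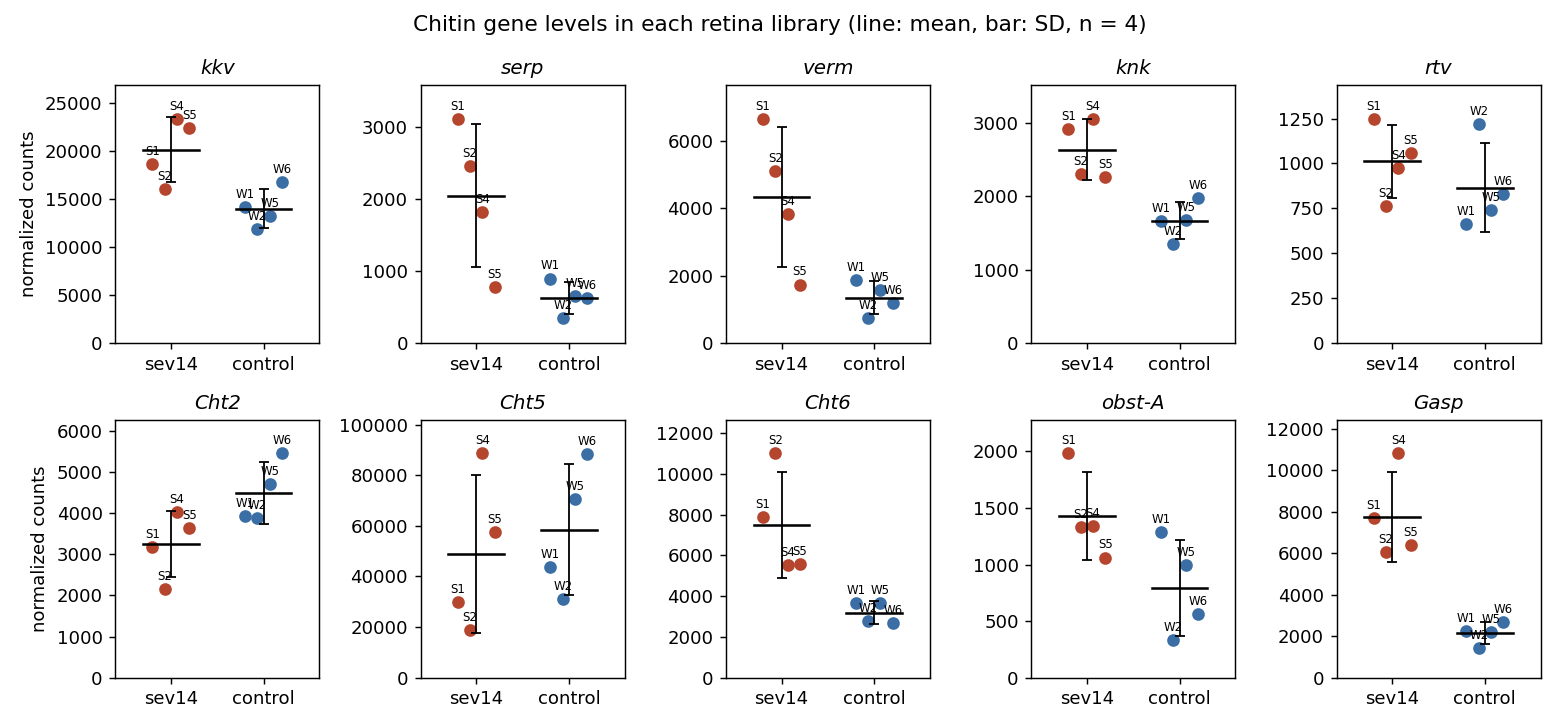
Normalized counts (axes from 0) of each of the 10 chitin genes in the sev14 libraries (left, red) and the control libraries (right, blue); lines are means and bars SD of 4 libraries. For Gasp, Cht6 and knk the genotypes do not overlap, while for serp and verm S5 lies at the control level.

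The gene obst-A (FBgn0031097, X 20239855 to 20243209) encodes a matrix scaffold that holds chitin and the deacetylases together in larval cuticle. It had 1983, 1333, 1337 and 1062 in S1, S2, S4 and S5, against 1285, 334, 994 and 560.4 in W1, W2, W5 and W6. The W1 level was above that of S5, and control libraries spread more widely than sev14 libraries. The change of 0.99 ± 0.38 did not pass (limma adjusted p = 0.206, and 0.110 to 0.421 over the alternatives). Gasp stood at 3.13 to 6.54 times obst-A per kb in sev14 libraries and at 1.43 to 3.91 times in control libraries.

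Genes whose profiles over the 8 libraries were closest to those of kkv and Gasp were sought among the 7734 tested genes that averaged 100 normalized counts or more. The closest to kkv was laccase2, the phenol oxidase that hardens and tans cuticle, with a root mean square difference of 0.0865 on the log2 scale against a median of 0.404 over all genes compared. It had 8317, 6912, 9635 and 8144 in S1, S2, S4 and S5, against 6023, 4943, 5722 and 7405 in W1, W2, W5 and W6 (0.46, limma adjusted p = 0.163). The next were alpha-Est10, Irp-1B, CG17786 and CG8547, at 0.0945 to 0.0993. The closest to Gasp were CG13563, CG10257, PGRP-LB, CG31676 and CG15080, at 0.326 to 0.352 against a median of 1.01. PGRP-LB encodes an amidase that cleaves bacterial peptidoglycan. The likeness includes the genotype difference and is a description.

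Other chitin genes were taken as 7 lists, in which 28 of 39 genes were tested. Of these 28, exp and Idgf1 rose and Idgf6 fell in limma's test, or 2 and 1, against 2.38% and 1.82% of all genes. Their median change was 0.13, against 0.00 over all tested genes. By edgeR 1 was higher and 1 lower, against 2.24% and 1.53% of all genes, and by DESeq2 4 and 1, against 4.94% and 3.38%. Beside them stood 8 septate junction genes and the factor gene grh, and with these 3 of 37 rose and 1 fell by limma. Without S2 and S5 0 of the 36 then tested passed, with 13 at an unadjusted p under 0.05, against 16.2% of all genes. With every library kept, limma had 9.12% of all genes higher and 7.54% lower at an unadjusted p under 0.05. These shares, and the shares called by each method above, are the background for each list below.

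Genes for the sugar precursor showed small differences: limma, edgeR and DESeq2 each called 0 of the 8 tested, and limma gave 2 of them an unadjusted p under 0.05. Their changes ran from -0.05 to 0.33. The highest of them was nst, the phosphoacetylglucosamine mutase gene, with 1731, 1533, 1490.3 and 1396 in S1, S2, S4 and S5, against 1116, 1238, 1259 and 1257 in W1, W2, W5 and W6 (0.33 ± 0.11, limma adjusted p = 0.143). The gene mmy, for the last enzyme before the synthase, averaged 2612 ± 310.4 in sev14 and 2344 ± 254 in control retinas (0.15, limma adjusted p = 0.637).

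Export was represented by exp (expansion, CG13188 in the deposited symbols), which acts with Kkv in chitin deposition in Drosophila. It had 3639, 4013, 3934 and 3913 in S1, S2, S4 and S5, against 2515, 2338, 2792 and 2692 in W1, W2, W5 and W6, with no overlap and little spread (0.59 ± 0.11, limma adjusted p = 0.0118). The call ended under scaling by total reads (adjusted p = 0.0584), without S2 and S5 (0.0820) and without both W6 and S4 (0.0570). It also ended with a block by the number in the column names. Its paralog reb (CG13183) had between 0 and 20.9 normalized counts, and the gut chitin synthase gene Chs2 (CS-2) had 24 reads in sev14 and 1 in control libraries, below the filter.

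Of 3 other deacetylase genes tested, limma and edgeR called 0, with 1 at an unadjusted p under 0.05 in limma. That one was Cda5, which DESeq2 called higher, with 1504, 3278, 624 and 821 in S1, S2, S4 and S5, against 723, 337, 527 and 445 in W1, W2, W5 and W6 (1.37 ± 0.46, limma adjusted p = 0.151). S1 and S2 were the highest sev14 libraries for Cda5, as for serp and verm, but S2 was above S1 and S4 was the lowest. Of the 4 other chitinase genes tested 0 passed by limma, edgeR or DESeq2, with 0 at an unadjusted p under 0.05. Cht7, a membrane-bound chitinase gene, averaged 12611 ± 3491 in sev14 and 9096 ± 3034 in control retinas (0.49, limma adjusted p = 0.393). Cht10 (Cht3 in the deposited symbols) averaged 3819 ± 2121 in sev14 and 2544 ± 974 in control retinas (0.42, limma adjusted p = 0.739). The genes Cht4, Cht9 and Cht12 had 0 reads in every library.

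The imaginal disc growth factors are chitinase-like proteins without chitinase activity. Of 6, 1 rose and 1 fell. Idgf6 (CG5210) had 361, 256, 337 and 269 in S1, S2, S4 and S5, against 478, 561, 789 and 686 in W1, W2, W5 and W6, with no overlap (-1.03 ± 0.19, limma adjusted p = 0.0150, but 0.0502 without W6, 0.114 without S2 and S5 and 0.0651 without both W6 and S4). The call for Idgf6 also ended with a block by the number in the column names. Idgf1 was low, with 59.1, 60.7, 18.0 and 30.5 in S1, S2, S4 and S5, against 0, 5.02, 0 and 6.66 in W1, W2, W5 and W6. Its fitted change was 3.89 ± 0.86 (limma adjusted p = 0.0331), a value that depends on the pseudocount, and its call ended without S1, S2, S5, W1 or W5 (0.0691 to 0.123), by edgeR (0.0989), with a filter of 20 (0.0616) and without S2 and S5 (0.197).

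Hexosaminidases, which split chitin fragments into single sugars, gave 0 calls among 3 genes in limma, edgeR and DESeq2, with 2 at an unadjusted p under 0.05. Hexo2 averaged 2974 ± 375 in sev14 and 2119 ± 581 in control retinas (0.52 ± 0.18, limma adjusted p = 0.168). Of the other obstructor genes obst-B was the only well-expressed one, with 9574, 7198, 9741 and 6507 in S1, S2, S4 and S5, against 5512, 4018, 5780.2 and 6378 in W1, W2, W5 and W6. Its libraries did not overlap, by a narrow margin (0.60 ± 0.19, limma adjusted p = 0.122, DESeq2 adjusted p = 0.0339). Septate junction components are needed for Serp and Verm to reach the lumen in Drosophila trachea. Of 8 junction genes 0 passed by limma or edgeR, 2 had an unadjusted p under 0.05, and DESeq2 called nrv2 higher and kune lower. The Na,K-ATPase subunit gene nrv2 had the largest change (0.53 ± 0.14, limma adjusted p = 0.0686).

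The transcription factor gene grh (grainy head), an activator of epidermal and cuticle genes in Drosophila, had 1656, 2007, 1670.2 and 1948 in S1, S2, S4 and S5, against 950.0, 697, 1464 and 1093 in W1, W2, W5 and W6. The genotypes did not overlap. The change of 0.84 ± 0.20 was at the threshold (limma adjusted p = 0.0499), and the call ended in 17 of the 23 alternatives (adjusted p from 0.0517 to 0.233 in these). These included leaving out any 1 library but W5 (0.0671 to 0.130) and edgeR (0.0688), while DESeq2 called it (0.00923).

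Markers of other tissues that could carry chitin-related transcripts were summed as well. The fat body list of 6 genes ranged from 22815 to 63763 in sev14 and from 15595 to 38070 in control libraries, with the sum highest in S1 and W2. Of the 6, 1 rose by limma and by edgeR and 3 by DESeq2, 4 had an unadjusted p under 0.05 in limma, and the median change was 1.05. Of all tested genes 2.38% rose by limma, 2.24% by edgeR and 4.94% by DESeq2. At an unadjusted p under 0.05 limma had 9.12% of them higher and 7.54% lower. The fat body gene that rose by limma was Lsp1alpha, a larval serum protein gene, at 5.01-fold of control. Lsp1alpha was called in all 23 alternatives. The haemocyte list of 5 genes ranged from 3148 to 10211 in sev14 and from 4751 to 8745 in control libraries, and the muscle list of 5 from 1057 to 5275 in sev14 and from 876 to 25137 in control libraries, with W5 the highest. In neither list was a gene called by limma or edgeR, with 1 and 0 at an unadjusted p under 0.05 in limma, and DESeq2 called 1 muscle gene, Act88F, lower. Among sev14 libraries the fat body and muscle sums were highest in S1, as were serp, verm, obst-A and rtv. Among control libraries the fat body sum was highest in W2, where rtv was highest but serp, verm and obst-A were lowest. The part of fat body and muscle RNA in these levels was not tested.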

How the data were processed

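Retina libraries of 2 genotypes were compared, 4 of each. DESeq2 1.32.0, RSEM 1.2.31, HISAT2 2.0.3, cutadapt 1.9.1 and FastQC 0.11.4 are named by the submitters' processing notes, beside builds dm6 and BDGP6. The authors deposited a signal per gene and library, normalized counts, in which each library's gene counts share 1 divisor. The authors also deposited a log2 fold change, a test score and a p-value per gene, used only where named. Divided by the value of 1 read, 99.98% to 100.0% of nonzero values came within 0.05 of whole reads. Columns were assigned to genotypes by the initials in their names and carry no replicate number from the sample titles. Agreement within sampling noise was not seen between libraries of a genotype (chi-square per degree of freedom of at least 46.0).

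For genes averaging 5 normalized counts or more, log2(normalized count + 1) was compared by limma 3.58.1 (R 4.3.3, intensity trend, 2-sided), with Benjamini-Hochberg adjustment over all 10192 genes at 0.05. This scale understates the change of low genes. edgeR 4.0.16 (quasi-likelihood) and DESeq2 1.42.0 were run on the recovered whole reads. Other alternatives were TMM, recomputed and total-read scaling, pseudocounts of 0.5 and 5, no filter, a filter of 20, array weights and leaving out each library. Chosen after seeing the data were leaving out W6 and S4, leaving out S2 and S5, a term for column number, a block by column number and a term for retina marker level. The fit was tested on simulated data. Exon lengths came from the Ensembl BDGP6 annotation, where 98.6% of the genes found had the deposited coordinates. Python 3.11.15 read the table and drew the plots. The members and lists were chosen with earlier results of these data known. The text names all 10 members, and in each other list the called genes or else the gene with the largest change whose mean was at least 20. Likeness used the 5 nearest profiles. Of 94 list entries 3 were duplicates. mmy, Cht10, reb, Chs2, gl, VGlut and other genes outside this rule were named after their values were seen.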

Additional observations from a re-analysis of the deposited data

Results flagged for a closer look

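Among the 10 chitin genes, sev and the named genes of the other lists, each genotype's 4 libraries were checked for a library far from the other 3, in 42 groups. Chance flags about 1 in 20 such groups, and 1 was found. It was nst, the phosphoacetylglucosamine mutase gene, whose control library W1 stood at 1116 normalized counts against 1238 to 1259 in W2, W5 and W6. The sev14 libraries of nst lay between 1396 and 1731. No library of the 10 chitin genes was flagged.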

How the results depend on the processing

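The columns carry none of the replicate numbers of the sample titles, and of the numbers in their names 1, 2 and 5 occur in both genotypes. Deviations of these same-numbered libraries from their genotype means correlated at 0.0869, 0.190 and 0.0625. Pairs of unlike number correlated at -0.326 to 0.387. Whether same-numbered libraries share a batch or a dissection is not stated, and these correlations cannot decide it. A replicate block by this number, over these 6 libraries, called 2 members higher and 0 lower, 197 and 131 of all genes, and 1 and 0 in the other lists. Of the 10 chitin genes, all kept the direction of their change in all 23 alternatives, and Gasp kept its call. Not all of these alternatives could alter a direction. The filter settings and the column number term left each fitted change as it was (kkv at 0.52). Recomputed size factors repeated the deposited scaling, and the retina marker term could move the changes only a little. Members called higher (3) numbered 6 by DESeq2, 5 without S2 and S5, 5 with column number as a term (1 or 2 against 4 to 6), 6 with the retina marker term, and 1 to 5 when each library was left out. The lowest was reached without S1 and without W2. Members called lower (0) numbered 1 with the retina marker term and 0 to 0 without each library. Total-read scaling moved the median gene by -0.14 and left 2 members called. Over all genes, 243 were higher and 186 lower. DESeq2 gave 503 and 344, leaving out W6 and S4 gave 156 and 106, the column number term gave 390 and 291, and the retina marker term gave 448 and 384. Without S2 and S5 145 were higher. Leaving out each library gave 137 to 251 higher and 111 to 189 lower. In the other chitin lists with the junction genes and grh, 3 higher and 1 lower became 1 and 2 with total-read scaling, 6 and 2 by DESeq2, 0 and 0 without S2 and S5, 1 and 0 without W6 and S4, and 5 and 2 with the retina marker term. They were 1 higher by edgeR and with a filter of 20, and 1 to 3 higher and 0 to 1 lower without each library. The sev difference was 0.0828 without S4 (exact permutation p = 0.8) and ran from -0.51 to 0.0828 without each library. The cause of these shifts was not tested.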
